A study of Mus musculus with 46 samples.

Results

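Mouse embryonic fibroblasts (MEF) carrying the SS18-Nanog fusion for 3 days were compared with MEF carrying native Nanog for 7 days, each together with Oct4. The 4 libraries were 2 of NanogN70+Oct4 at D3 and 2 of Nanog+Oct4 at D7, out of 31 time-course libraries, 34 libraries in the gene table and 46 samples in the series. They were selected on a measured value: their mean position between MEF and mouse embryonic stem cells (mES) over the genes that are high in mES was alike, and so was their depth. A pair of groups at a like position on that scale allows the question of whether the native factor moves along the same path more slowly or leaves it.

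Both groups were OG2 MEF, fibroblasts from embryos that carry an Oct4-GFP reporter, and both received retroviral Oct4 (Pou5f1) in the pMXs vector. NanogBiD (NanogN70 in the sample labels) is Nanog joined at its N-terminus to the BRG1 interacting domain of SS18. SS18 belongs to the BAF complex, whose ATPase is BRG1. NanogWT is native Nanog. D0 was set after 2 rounds of infection, and the cells were then kept in iCD3 induction medium, which was replaced by N2B27 with 2iL after day 7. Whole cultures were sampled, retroviral expression differs between cells, and reads of the vectors and of the endogenous genes cannot be separated in the table. Each group had 2 replicates, and nothing in the labels says that these came from separate cultures. The p-values therefore rest only on the spread between replicate libraries, estimated over all 31 time-course libraries. In bulk libraries, fewer cells of a type and less RNA per cell cannot be told apart.

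During reprogramming, fibroblast genes such as those of the extracellular matrix are turned off before most of the pluripotency network of embryonic stem cells is turned on. Nanog and Oct4 are transcription factors of that network, and the BAF complex moves nucleosomes so that regulatory DNA becomes accessible. Fibroblasts also carry an innate immune program, in which interferon-stimulated genes and the peptide-presenting MHC class I genes are raised together through transcription factors that bind repeats of GAAA.

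Levels are FPKM (fragments scaled by gene length and by library size), and differences are on the log2(FPKM + 1) scale, NanogBiD D3 minus NanogWT D7. The added 1 makes changes of low genes look smaller than they are. The ESC-high set held 1190 genes with mES above MEF by 4-fold or more on this scale, and the MEF-high set 1067 genes with the reverse, from 1 mES library and 2 MEF libraries. A gene was called different at an adjusted p under 0.05 and at least 2-fold in a limma fit over all 31 time-course libraries. Because the ESC-high genes chose the libraries, they are described without a test for this pair. The tests reported for it cover the 15736 genes outside that set. The fit and its adjustment did include the ESC-high genes. Klf5, L1td1 and Sox1 are named below because, as members of gene lists, they passed it. Their passing is no evidence of a difference, since ESC-high values chose the libraries, and their levels are given as a description.

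The labels were first checked on the delivered genes. Ss18 was at 136 and 117 FPKM in the NanogBiD D3 libraries and at 32.6 and 31.7 FPKM in the NanogWT D7 libraries, against a mean of 28 FPKM in MEF. Both fusion libraries were above both native libraries, by 1.94 (SE 0.17, adjusted p = 1.01e-07, limma). Nanog was at 1480 and 1590 FPKM against 1215 and 1528 FPKM, and Pou5f1 was at 6969 and 4571 FPKM against 6550 and 4321 FPKM, so that the groups overlapped for both, with differences of 0.17 (SE 0.20) and 0.09 (SE 0.36). Relative to NanogBiD D3 replicate 1, the depth recovered from the smallest values was 1.06 in replicate 2, and 0.982 and 1.06 in the NanogWT D7 libraries. Across genes, Pearson's r was 0.967 between the fusion replicates, 0.984 between the native replicates and 0.942 to 0.959 between the groups.

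On the activation score, the mean percent of the way from MEF to mES over the ESC-high genes, the NanogBiD D3 libraries stood at 15.23 and 10.39 and the NanogWT D7 libraries at 12.92 and 12.38. The means were 12.81 ± 3.43 (SD, n = 2) and 12.65 ± 0.38 (SD, n = 2), and the native libraries lay between the fusion libraries. These values chose the pair. The nearest groups left out were NanogBiD D1 at 9.04 and 7.26, NanogBiD D5 at 20 and 20.09, NanogWT D5 at 9.48 and 12.49, and NanogWT D8 at 12.94 and 15.69.

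The silencing score, the same measure over the MEF-high genes, did not enter the choice. It was 32.29 and 32.53 percent in NanogBiD D3 and 24.66 and 27.34 percent in NanogWT D7. On this mean over genes both fusion libraries stood further towards mES than both native libraries, by 6.41 percentage points. A difference in this direction was already there at D0, with 14.04 and 15.12 percent in NanogBiD and 8.88 and 11.55 percent in NanogWT. Over the 1064 tested MEF-high genes the median difference was −0.15, and −0.03 for the changes from each combination's own D0. MEF-high genes that stand above their MEF level lower the score too. Of the 112 MEF-high genes called lower in NanogBiD D3, 52 were above the MEF mean in NanogWT D7 and 21 in NanogBiD D3. With 2 libraries against 2, an exact permutation test cannot give a p under 0.33, and none is reported. The NanogWT libraries of D5 and D7 were at 23.95 to 27.34 percent, and those of D8, after the change of medium, at 13.82 and 13.75 percent. From D8 on the medium and the day cannot be told apart. The lower NanogBiD D3 value, 32.29 percent, was above each of the 16 NanogWT libraries.

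**Figure D1:**
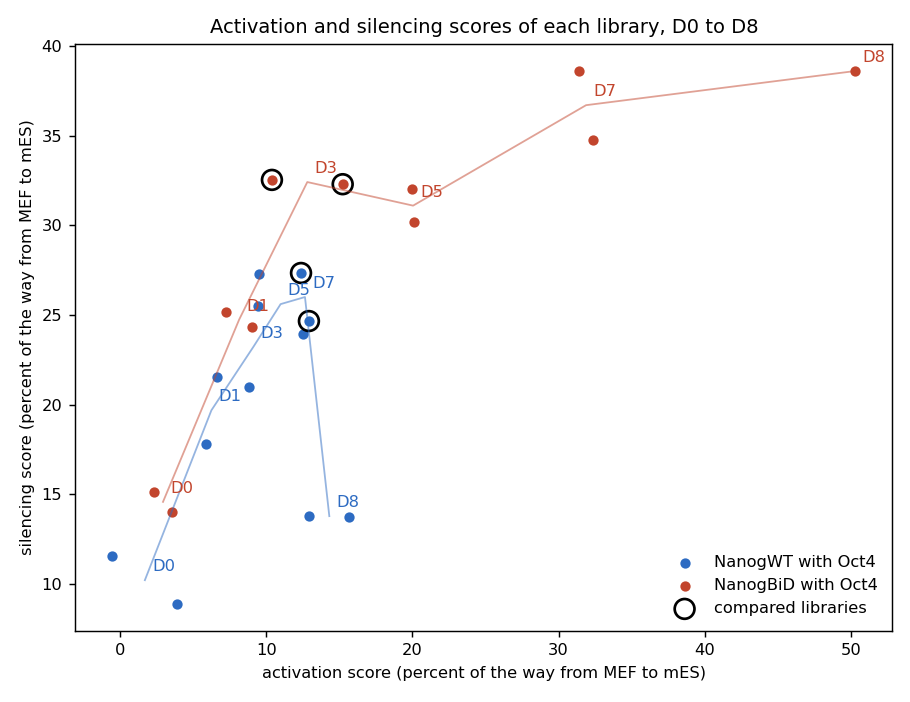
Activation score (x axis) and silencing score (y axis) of each library from D0 to D8, both in percent of the way from MEF to mES; points are libraries, lines join the means of each day, and circles mark the 4 compared libraries. At activation scores of 10.39 to 15.23 the NanogBiD D3 libraries stand at silencing scores above 32, and the NanogWT D7 libraries at 24.66 and 27.34.

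Among ESC-high genes the agreement of the means held as a balance of differences in both directions. The median difference over the 1106 measured ESC-high genes was 0.00, the 10th percentile −0.56 and the 90th percentile 0.54. In 25 of these genes (2.26%) the fusion libraries were at least 2-fold above the native ones on average without overlap, and in 47 (4.25%) they were below in the same way. Outside the ESC-high set the shares by the same rule were 1.34% and 4.44%. All of these are descriptions of the values that chose the libraries.

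Named ESC-high genes that stood higher in NanogBiD D3 included Tdgf1 (Cripto, a Nodal co-receptor), at 7.42 and 4.22 FPKM against 0.454 and 0.84 FPKM, with 408 FPKM in mES. Slc2a3, a glucose transporter, was at 24.8 and 18.1 FPKM against 5.37 and 4.33 FPKM, with 1071 FPKM in mES. Klf2, a naive pluripotency factor, was at 3.82 and 1.51 FPKM against 0.487 and 1.03 FPKM. The combinations did not overlap in any of these genes, and both were far below mES. Stmn2, which regulates microtubules in neurons, had the widest difference of the ESC-high set (3.82), at 205 and 193 FPKM against 11.9 and 14.4 FPKM, above the 55.3 FPKM of mES. Sh3gl2 (3.18), Frat2 (2.21), Sp5 (1.35), Smagp (1.31) and Cldn3 (1.31) completed the 8 widest by the naming rule.

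On the other side, Alpl (alkaline phosphatase, a stain for pluripotent colonies) was at 0.649 and 0.273 FPKM in NanogBiD D3 and at 7.96 and 6.32 FPKM in NanogWT D7. Klf5 was at 6.49 and 6.74 FPKM against 22.7 and 16.9 FPKM, and L1td1, an RNA-binding protein of pluripotent cells, was at 0.147 and 0.099 FPKM against 1.87 and 3.44 FPKM. In each of these the native libraries were both above the fusion libraries. The neurofilament genes Nefm, at 19.9 and 18 FPKM against 186 and 142 FPKM, and Nefl, at 22.4 and 18 FPKM against 112 and 107 FPKM, and the neural factors Pou3f1, at 11.9 and 3.37 FPKM against 37.9 and 29.2 FPKM, and Sox1, at 15 and 9.24 FPKM against 41.4 and 30.6 FPKM, were also higher in NanogWT D7. At D0 the Nefm mean was already lower in NanogBiD, at 0.942 FPKM against 18.7 FPKM in NanogWT. The Nefl means at D0 were 1.07 and 15.8 FPKM. For the changes from each combination's own D0, the differences were 0.25 (SE 0.56) for Nefm and 0.62 (SE 0.48) for Nefl. Those for Pou3f1 and Sox1 were −2.01 (SE 0.61) and −1.50 (SE 0.50). Depdc7 (−2.58), Dnah8 (−2.38), Prex1 (−2.37) and Cth (−1.69) were the other widest.

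Most of the pluripotency network was at similar, low levels in both groups. Of 19 naive pluripotency transcription factors, 11 had a difference above 0 and 8 below, with a median of 0.05. Prdm14 and Tcl1, counted as below, had differences that round to 0.00. Esrrb was at 0.0965 and 0.136 FPKM against 0.111 and 0.159 FPKM and Sall4 at 1.49 and 1.27 FPKM against 1.43 and 1.63 FPKM, so that the groups overlapped. Dppa5a, Dppa3 and Dppa4 were listed at 0 in all 4 libraries. Of 20 pluripotency effectors, 6 were counted as above 0 and 14 as below, with a median of −0.03. The 14 include Dppa5a, Dppa3 and Dppa4, whose difference is 0 and has no direction, and Nodal, counted as above, rounds to 0.00. The 2 effectors outside the ESC-high set were Lefty1, which was not called, and Spp1 (osteopontin). Spp1 was at 459 and 550 FPKM against 150 and 256 FPKM and was called higher (1.36, SE 0.39, adjusted p = 0.0251).

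Outside the ESC-high set, 174 genes were called higher in NanogBiD D3, 1.11% of the 15736 tested, and 663 were called lower, 4.21%. The median difference over all of these tested genes was 0.02. Of the called genes, 28 of those higher and 82 of those lower had predicted or small RNA symbols. With the spread estimated from the 4 compared libraries alone, 52 genes passed, 7 higher and 45 lower. Without NanogBiD D3 replicate 2 the counts were 293 higher and 803 lower, and with values rescaled to TPM 185 and 1058.

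The called genes were spread unevenly over what MEF and mES express. Of 1064 tested MEF-high genes, 112 were lower in NanogBiD D3 (10.5%) and 28 higher (2.63%), with a median of −0.15. Of 2735 genes under 1 FPKM in both MEF and mES, 308 were lower in NanogBiD D3 (11.3%) and 56 higher (2.05%). Of 13001 genes at 1 FPKM or more in either, 355 were lower (2.73%) and 118 higher (0.908%). In 271 of the 308 genes that were under 1 FPKM in both MEF and mES and lower in NanogBiD D3, the NanogBiD D3 mean was above the MEF mean too. Genes of this kind passed the filter on low values through the time-course libraries in which they were high, so these shares are a description.

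**Figure D2:**
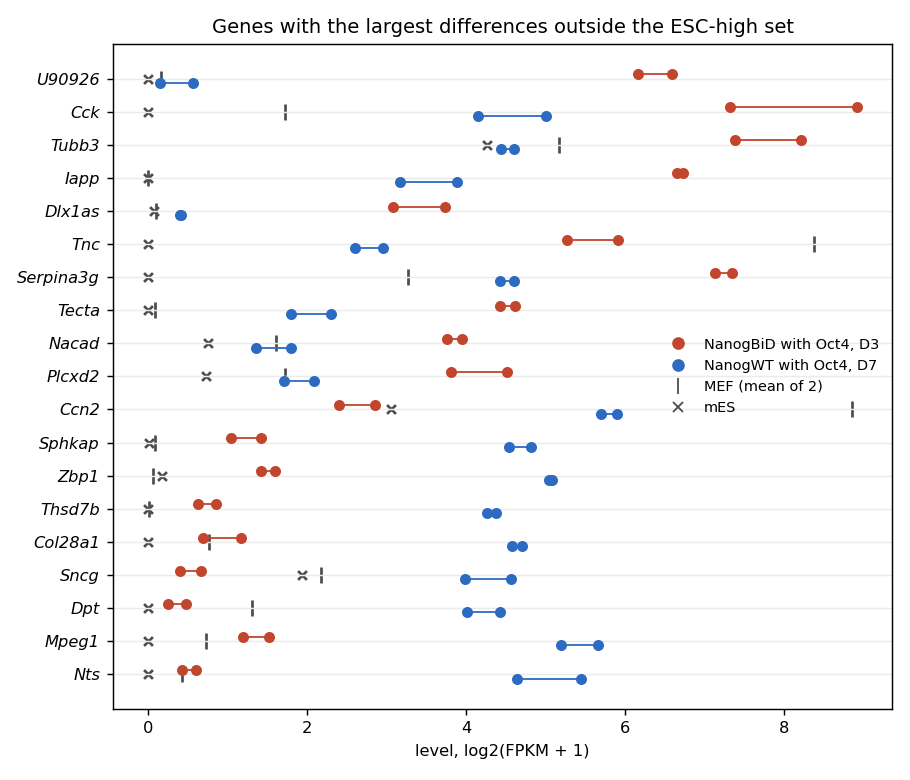
Levels, in log2(FPKM + 1), of the genes with the largest called differences outside the ESC-high set; red points are the 2 NanogBiD D3 libraries, blue points the 2 NanogWT D7 libraries, bars MEF (mean of 2) and crosses mES. The ranges of both groups are apart for every gene shown, from U90926 (6.01 higher in NanogBiD D3) to Nts (−4.54).

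The largest difference was that of U90926, a long noncoding RNA gene on chr5:92209895-92215408 (GRCm38.p6). It was at 95.4 and 70.6 FPKM against 0.484 and 0.112 FPKM (6.01, SE 0.25, adjusted p = 1.31e-11). Its native level was 17.8 FPKM at D1 and 3.64 FPKM at D3, and its fusion level 68.4 FPKM at D1 and 35.7 FPKM at D7. In the native libraries of D3 and later it was under 5 FPKM, and in the fusion libraries of D1 to D7 it was above 30 FPKM.

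Cck, which encodes the peptide cholecystokinin, was at 484 and 159 FPKM against 31.3 and 16.8 FPKM (3.54, SE 0.51, adjusted p = 6.03e-05). Tubb3, the beta-tubulin of neurons on chr8:123411553-123422015, was at 296 and 167 FPKM against 20.8 and 23.4 FPKM (3.27, SE 0.42, adjusted p = 1.4e-05). Iapp, the islet hormone amylin, was at 100 and 105 FPKM against 7.98 and 13.8 FPKM (3.17, SE 0.32, adjusted p = 6.79e-07). All fusion values of these genes were above all native values. Tubb3 stood at 258 and 223 FPKM in the native libraries of D12, within the range of the NanogBiD D3 libraries. The native mean of Iapp was 0.251 FPKM at D12.

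Tnc, the matrix glycoprotein tenascin C, was at 37.7 and 59.2 FPKM against 5.09 and 6.78 FPKM, below its MEF mean of 332 FPKM in both groups (2.81, SE 0.41, adjusted p = 7.41e-05). Il33, an alarmin cytokine, was at 11.7 and 16.7 FPKM against 2.15 and 2.41 FPKM (2.19, SE 0.22, adjusted p = 5.65e-07). Among the other 5 were Serpina3g, a serine protease inhibitor of a family with similar copies that could share reads (2.72), Tecta, a protein of the inner-ear tectorial membrane (2.47), Nacad (2.27) and Plcxd2 (2.26). Dlx1as (3.00) lies opposite Dlx1, and because use of strand in the counting is not stated its reads cannot be told from those of Dlx1.

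The largest difference in the other direction was that of Nts, the peptide neurotensin on chr10:102481756-102490418, which was at 0.348 and 0.514 FPKM against 24 and 42.8 FPKM (−4.54, SE 0.31, adjusted p = 5.33e-09). Dpt, the dermal matrix protein dermatopontin on chr1:164796663-164824274, was at 0.189 and 0.392 FPKM against 15.1 and 20.6 FPKM (−3.86, SE 0.26, adjusted p = 4.03e-09). The native libraries were above the fusion libraries in both genes. No fusion library of any day had more than 0.883 FPKM of Dpt, while the native mean was 195 FPKM at D12. The native mean of Nts was 0.171 FPKM at D12.

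Mpeg1, which encodes the pore-forming protein perforin-2 of macrophages, was at 1.28 and 1.88 FPKM against 49.8 and 35.7 FPKM (−4.08, SE 0.37, adjusted p = 1.7e-07). Of 9 measured macrophage markers, 8 had a difference below 0, with a median of −0.32, Lyz2 at −0.82 and Adgre1 at −0.59. The summed level of the list was 11.6 and 5.24 FPKM in NanogBiD D3 and 20.1 and 8.15 FPKM in NanogWT D7, which overlap, and its part in the result was not tested. Csf1r was at most 0.259 FPKM, Itgam was at most 0.0809 FPKM, and none of 8 tested outside the ESC-high set was called by limma or had an unadjusted p under 0.05. Over all 15736 genes, 10.6% were higher and 13.9% lower at that unadjusted p. Col28a1, a collagen gene, was at 0.609 and 1.24 FPKM against 25 and 22.9 FPKM (−3.71, SE 0.16), and Thsd7b (−3.59), Sphkap, an anchor protein for protein kinase A (−3.45), and Sncg, gamma-synuclein (−3.75), differed in the same direction.

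Ccn2, a secreted protein induced by TGF-beta and by mechanical load, was at 4.28 and 6.21 FPKM against 51 and 58.7 FPKM, below the 465 FPKM of MEF (−3.17, SE 0.31, adjusted p = 5.76e-07). The table lists it again under its older symbol Ctgf with the same values. The pair is 1 gene, entered under both symbols in the counts given here. With 1 row kept of each near-identical pair, a setting added after seeing the data, 655 genes were lower and 169 higher. Its level fell in both combinations, from a D0 mean of 723 FPKM in fusion libraries and 882 FPKM in native ones. The fusion mean was 6.75 FPKM at D7 and the native mean 63.2 FPKM at D12.

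Interferon-stimulated genes were lower in NanogBiD D3 in 12 of 28 tested outside the ESC-high set, and none was higher. Of all 30, 29 had a difference below 0, and the median was −1.0. At an unadjusted p under 0.05, 21 were lower and none higher. Over all 15736 genes tested outside the ESC-high set, 4.21% were called lower and 1.11% higher. At the unadjusted p these shares were 13.9% and 10.6%, and they apply beside the lists that follow too. Zbp1, a sensor of Z-form nucleic acid, was at 2.03 and 1.67 FPKM against 32.9 and 32 FPKM (−3.55, SE 0.32, adjusted p = 1.63e-07).

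Oas2, which makes the second messenger of RNase L, was at 0.297 and 0.402 FPKM against 8.68 and 9.82 FPKM (−2.92, SE 0.22, adjusted p = 2.17e-08). Ifit3, an antiviral RNA-response protein, was at 2.05 and 2.95 FPKM against 16.6 and 24.7 FPKM (−2.61, SE 0.27, adjusted p = 1.09e-06). Ifi44 was at 1.04 and 3.99 FPKM against 16.5 and 29.6 FPKM (−2.86, SE 0.30, adjusted p = 1.31e-06). In each of these genes the groups were apart. Among regulators of the response, Irf7 was called (−1.42), while Stat2 (−0.43) and Irf9 (−0.51) were not, and Oasl1 had a difference of 0.01.

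The spread between the fusion libraries was wide for this list. Replicate 1 was below replicate 2 for Ifit1, at 13.2 against 40.8 FPKM, for Usp18, at 6.26 against 20 FPKM, and for Mx1, at 0.276 against 1.25 FPKM. Without replicate 1, 6 of the 28 were called, and without replicate 2, 16 were. Without NanogWT D7 replicate 2, 8 were called, and with the spread taken from the 4 compared libraries alone, 2 were.

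Of 20 members of this list with a promoter in RefSeq, 11 (55%) held a match to GAAANNGAAA or, on the other strand, TTTCNNTTTC in the window from 250 bases before to 50 bases after the start, with overlapping matches allowed. Of all 32851 promoters 3.44% held one. Among tested genes outside the ESC-high set with a promoter the share was 3.65% of 11171, among those called lower in NanogBiD D3 33 of 474 (6.96%), and among those called higher 5 of 115 (4.35%). Of the 8 called interferon-stimulated genes with a promoter, 3 (37.5%) held a match and 5 did not, and of the MHC class I genes 3 of 11 did, with 1 of 8 among those called (12.5%). A match describes the letters only. The promoters below are of the 3 called interferon-stimulated genes that held one, Gbp2 (chr3:142620493-142620662), Ifit3 (chr19:34583359-34583528) and Ifit1 (chr19:34640719-34640888), all on the plus strand of GRCm38.p6. Each is the 170 bases before the start in RefSeq, with matches in capitals.
Gbp2: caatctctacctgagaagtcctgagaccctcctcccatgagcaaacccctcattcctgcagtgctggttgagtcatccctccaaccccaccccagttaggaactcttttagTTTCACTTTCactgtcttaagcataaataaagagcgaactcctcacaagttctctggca
Ifit3: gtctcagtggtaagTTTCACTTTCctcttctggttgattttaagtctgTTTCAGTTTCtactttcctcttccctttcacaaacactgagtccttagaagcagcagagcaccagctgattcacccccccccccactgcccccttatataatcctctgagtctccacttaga
Ifit1: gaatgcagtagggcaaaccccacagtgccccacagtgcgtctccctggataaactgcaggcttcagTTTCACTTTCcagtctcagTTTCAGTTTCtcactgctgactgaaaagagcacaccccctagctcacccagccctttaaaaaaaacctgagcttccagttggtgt

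Beside these promoters, Gbp2, a guanylate-binding protein, was at 7.27 and 14.2 FPKM against 28.1 and 24.5 FPKM (−1.28, SE 0.27, adjusted p = 0.00243), and Ifit1 at 13.2 and 40.8 FPKM against 55.2 and 87.1 FPKM (−1.53, SE 0.41, adjusted p = 0.0161). The native libraries were above the fusion libraries in both. Along the time course, Ifit3 in native libraries was at 1.12 and 0.523 FPKM at D0, at 15.6 and 12.1 FPKM at D3 and at 6.93 and 4.06 FPKM at D8. In fusion libraries it was at most 2.95 FPKM on any day.

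MHC class I and antigen processing genes gave the highest share of any list, 10 of 13 lower in NanogBiD D3 and none higher, with all 13 below 0 and a median of −1.14. H2-K1, a classical class I heavy chain, was at 50.5 and 57.6 FPKM against 266 and 256 FPKM (−2.25, SE 0.17, adjusted p = 1.6e-08). H2-D1 was at 51.5 and 49.2 FPKM against 277 and 243 FPKM (−2.34, SE 0.21, adjusted p = 2.17e-07), and H2-Q4 at 24.4 and 13.1 FPKM against 96 and 77 FPKM (−2.20, SE 0.31, adjusted p = 4.22e-05). The groups differ in day as well as in combination. At D3 the NanogWT libraries had 54.5 and 54.7 FPKM of H2-K1, within the range of the NanogBiD D3 libraries. Native D3 means were 57 FPKM for H2-D1 and 24.5 FPKM for H2-Q4. In NanogBiD libraries H2-K1 rose to 115 and 126 FPKM at D7, still below NanogWT D7. Class I genes share sequence, so that reads may be split between them, and their values are uncertain in that respect.

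The genes that load class I molecules differed in the same direction. The peptide transporter genes Tap1 (−1.04) and Tap2 (−1.11), their partner Tapbp (−1.22), the immunoproteasome genes Psmb8 (−1.14) and Psmb9 (−1.27) and the transactivator Nlrc5 (−1.14) were called. B2m, the light chain, was at 912 and 1338 FPKM against 1647 and 2143 FPKM and did not reach 2-fold (−0.77). The summed level of the list was 1152 and 1561 FPKM in NanogBiD D3 and 2535 and 2936 FPKM in NanogWT D7. Leaving out 1 library at a time gave 6 to 9 called genes, 6 without NanogWT D7 replicate 1, and the 4 compared libraries alone gave 2.

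**Figure D3:**
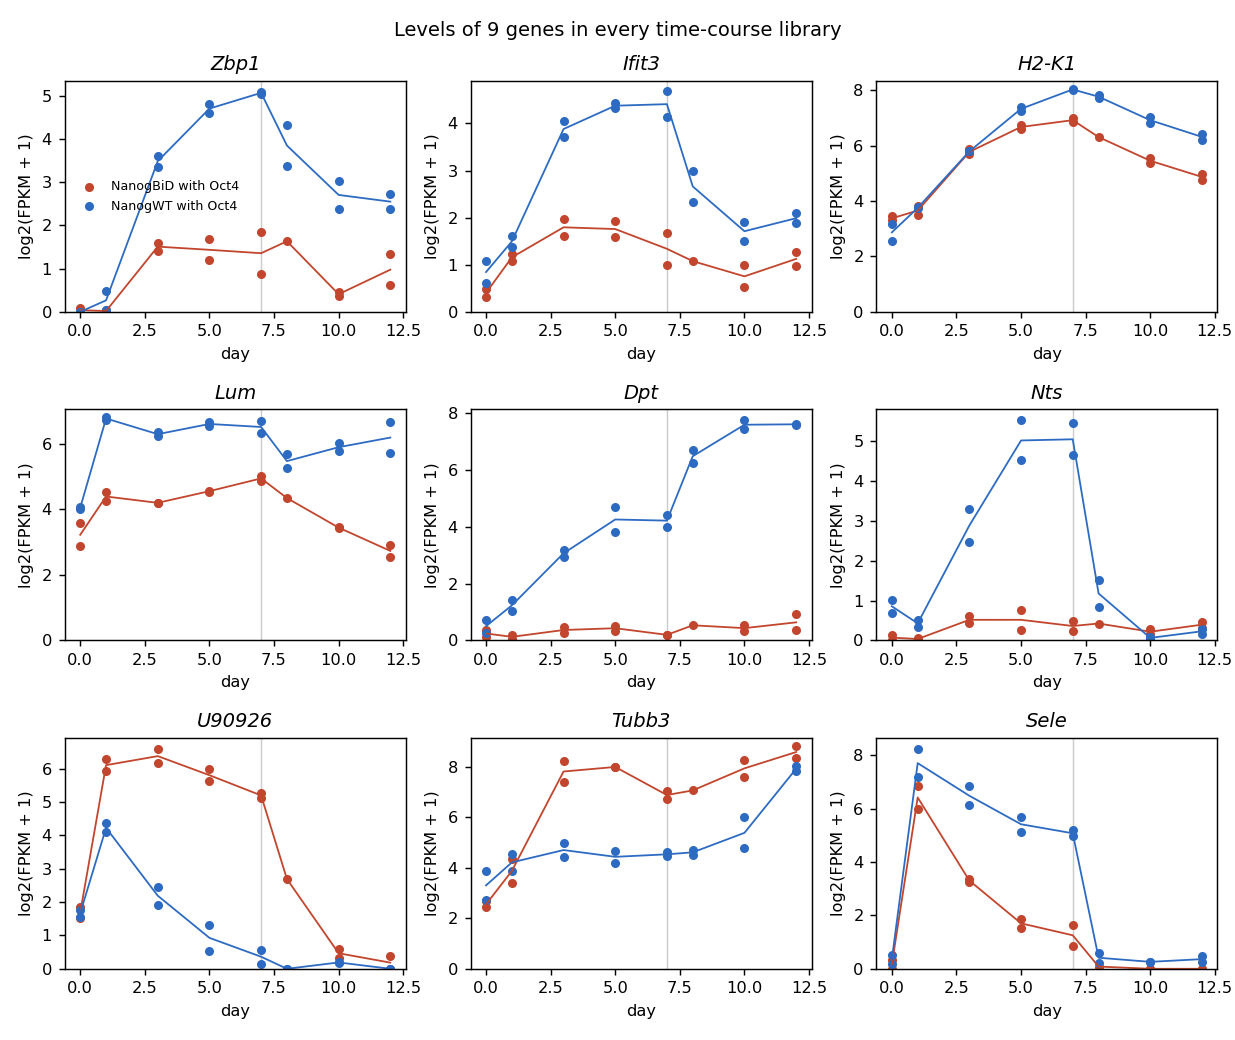
Levels, in log2(FPKM + 1), of 9 genes against day in every time-course library; points are libraries, lines join the means of each day, and the grey line marks D7. At D7 the NanogWT libraries (blue) are above the NanogBiD libraries (red) for all but U90926 and Tubb3, and the highest values of Sele are at D1 in both combinations.

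Fibroblast matrix genes were lower in NanogBiD D3 in 9 of 24, and 1 was higher, with 20 of 24 below 0 and a median of −0.87. Lum, the collagen-binding proteoglycan lumican, was at 17.4 and 17.3 FPKM against 80.1 and 102 FPKM (−2.31, SE 0.25, adjusted p = 1.62e-06). Col6a1, a chain of collagen VI, was at 10.1 and 7.45 FPKM against 35.6 and 32.3 FPKM (−1.85, SE 0.23, adjusted p = 8.81e-06). Col8a1 was at 109 and 145 FPKM against 360 and 374 FPKM (−1.54, SE 0.18, adjusted p = 3.95e-06). Native libraries were above fusion libraries in all 3.

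For Lum and Col8a1 the native D7 level was also above the MEF means of 11.2 and 81.5 FPKM, whereas Col6a1 had 208 FPKM in MEF. Dpt (above), Col6a3 (−1.65), Col3a1 (−1.41), Col6a2 (−1.24), Sparc (−1.09, or −0.99 and not called without NanogBiD D3 replicate 1) and Col1a2 (−1.01) were the other called genes. Lox, which cross-links collagen, went the other way, at 75.3 and 94.2 FPKM against 30.8 and 30.7 FPKM (1.43, SE 0.23, adjusted p = 0.000212). Col1a1, at 113 and 133 FPKM against 196 and 185 FPKM, Fn1 and Postn did not pass.

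Among smooth muscle contractile genes 4 of 15 were lower. Desmin (Des) was at 15.2 and 5.86 FPKM against 90.2 and 59.3 FPKM (−2.82, SE 0.38, adjusted p = 2.43e-05) and the myosin light chain gene Myl9 at 6 and 2.6 FPKM against 29.9 and 28.7 FPKM (−2.59, SE 0.42, adjusted p = 0.000216). Mylk (−1.84) and the integrin gene Itga8 (−1.22, or −0.86 and not called without NanogBiD D3 replicate 1) were the other called genes. The defining genes of the list were low beside MEF in both groups and were not called: Acta2 was at 34.1 and 19.8 FPKM against 16.8 and 18.4 FPKM, with 961 FPKM in MEF, and Tagln was at 5.82 and 5.66 FPKM against 11.1 and 7.85 FPKM, with 913 FPKM in MEF. Myh11 was at most 0.15 FPKM in the 4 libraries.

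TGF-beta ligands and targets were lower in 4 of 18 entries, Ccn2 with its duplicate Ctgf, the ligand gene Tgfb2 (−1.21) and the receptor gene Tgfbr2 (−1.19). Both were just under 2-fold, and not called, when 1 library was left out, Tgfb2 without NanogWT D7 replicate 2 (−0.99) and Tgfbr2 without NanogBiD D3 replicate 1 (−0.97). Of mesenchymal transcription factors 1 of 18 was lower, Osr1 at 14 and 13.4 FPKM against 33.1 and 33.2 FPKM (−1.21, SE 0.16, adjusted p = 1.82e-05), while 7 were lower at an unadjusted p under 0.05 and the median was −0.46. Inflammatory chemokines and adhesion genes were lower in 3 of 17, namely the chemokine gene Cxcl12 (−1.76), the prostaglandin synthase gene Ptgs2 (−1.38) and Sele (E-selectin).

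Sele followed a different course from the genes above. It was at 8.58 and 9.23 FPKM in NanogBiD D3 and at 35.4 and 30.5 FPKM in NanogWT D7 (−1.78, SE 0.33, adjusted p = 0.000943), with the groups apart. Its highest values were at D1 in both combinations, 115 and 62.5 FPKM in fusion libraries and 302 and 144 FPKM in native ones. The native D7 level lay between the fusion levels of D1 and D3.

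The other lists held few or no called genes. AP-1 factors had 1 of 12 higher, Fos (1.14, SE 0.30, adjusted p = 0.014), which was no longer called without NanogBiD D3 replicate 1 (0.94), NanogWT D7 replicate 1 (1.19) or NanogWT D7 replicate 2 (1.09). Neural markers had 1 of 10 higher, Tubb3. Of all 13 measured, however, 11 were counted as below 0 and 2 as above, with a median of −0.29. Primitive endoderm markers had 2 of 7 lower, Dab2 (−1.35) and Sparc, which is also in the matrix list. Both are MEF-high genes. Of 8 measured endoderm markers 6 were below 0, and the 2 above, Sox17 (0.30) and Gata6 (0.09), were not called. Cholesterol synthesis genes had 1 of 18 lower, Hsd17b7 (−1.21, or −0.95 and under 2-fold without NanogBiD D3 replicate 1). Oxidative stress genes had 1 of 8 lower, the cystine transporter gene Slc7a11 (−1.54). Striated muscle markers had 1 of 4 lower, Des, with Myod1, Myog and Myf5 listed at 0 in all 4 libraries. Keratinocyte markers had 1 of 3 lower, Trp63 at 0.512 and 0.896 FPKM against 6.58 and 6.63 FPKM (−2.17), with Krt5, Krt14 and Krt15 listed at 0.

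By limma none was called among 17 cell cycle genes (4 higher and 2 lower at an unadjusted p under 0.05), 11 glycolysis genes (3 and 1), 14 p53 and senescence genes (2 and 0), 17 BAF subunit genes (3 and 2), 23 Hox genes (0 and 0), 6 epithelial junction genes (0 and 0), 4 endothelial markers (0 and 1) or 6 trophoblast markers (0 and 1). Among the BAF genes, Smarca4, which encodes BRG1, was at 35 and 33.3 FPKM against 33.6 and 25.4 FPKM, with the groups overlapping. Smarca2, the alternative ATPase gene, was at 4.52 and 5.65 FPKM against 9.31 and 9.19 FPKM and did not reach 2-fold (−0.76).

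**Figure D4:**
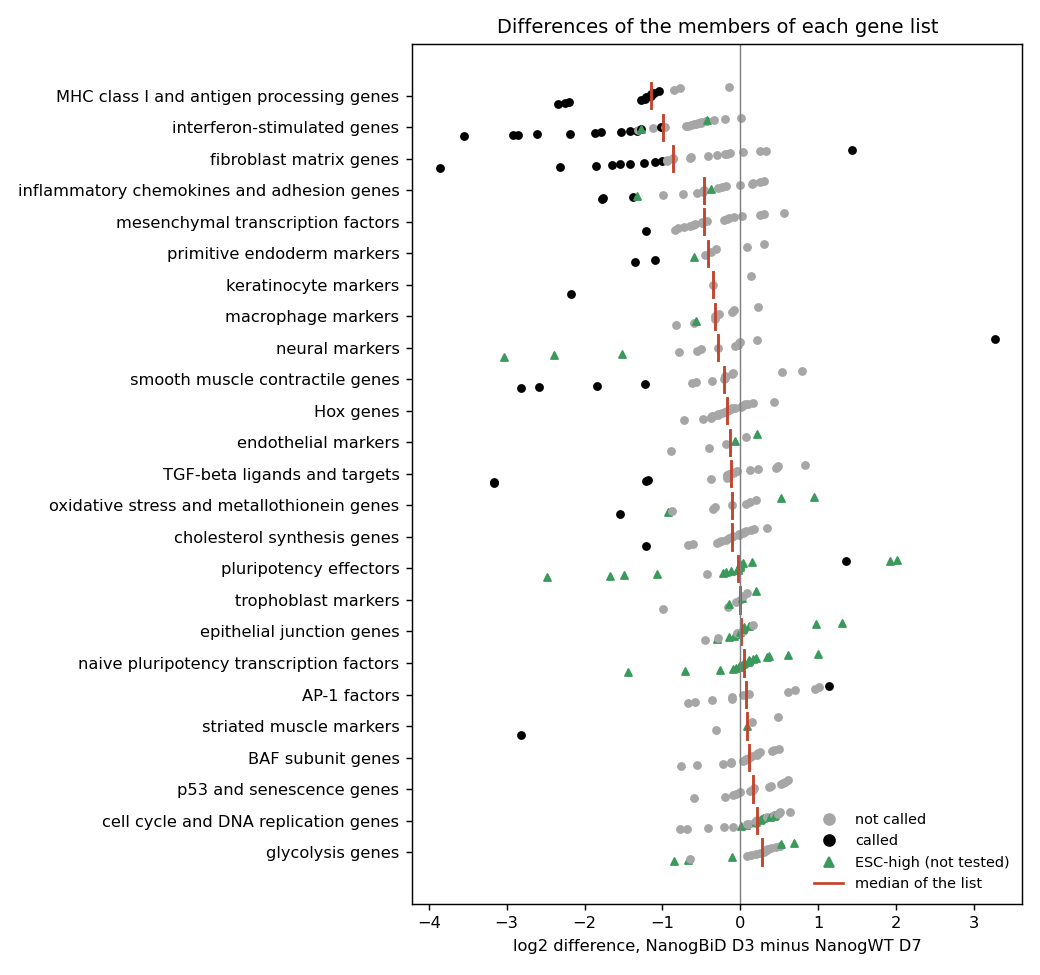
Log2 difference, NanogBiD D3 minus NanogWT D7, of each measured member of 25 gene lists (rows); black points were called, grey points were not, green triangles are ESC-high genes without a test, and red bars are medians over all measured members. MHC class I genes (median −1.14), interferon-stimulated genes (−1.0) and matrix genes (−0.87) lie furthest to the left.

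Whether the differences belonged to these days alone was examined in libraries that did not enter them. NanogBiD D1 against NanogWT D5 has the same lag of 4 days and shares no library with the comparison above. Its groups, too, differ in day as well as in combination, and a shared direction alone cannot tell these apart. There, 355 genes outside the ESC-high set were called higher (2.26% of 15736) and 967 lower (6.15%). Of the 663 genes lower in NanogBiD D3, 475 (71.6%, which is 49.1% of the 967) were also lower at the earlier pair and 3 were higher. Of the 174 higher in NanogBiD D3, 55 (31.6%, which is 15.5% of the 355) were also higher and 8 were lower.

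By list, 26 of 28 interferon-stimulated genes and all 13 MHC class I genes were lower at the earlier pair, with medians of −2.26 and −1.84. At D1 both combinations were low, with H2-K1 means of 11.7 FPKM (fusion) and 12.5 FPKM (native) and Ifit3 means of 1.23 and 1.83 FPKM. The NanogWT D5 means were 160 and 19.8 FPKM, so for these genes the earlier pair cannot tell combination from day. Zbp1 (−4.68), Nts (−4.99), Dpt (−4.14) and U90926 (5.18) were called in the same direction as later. Other genes did not carry over. Ccn2 (−0.69, adjusted p = 0.14) and Tubb3 (−0.56, adjusted p = 0.408) were not called, and Iapp was called lower (−1.44, adjusted p = 0.00244). Of the matrix genes 5 were called higher and 4 lower. Smooth muscle contractile genes had 5 called higher and 2 lower, with a median of 0.70. The activation scores of that pair, 9.04 and 7.26 against 9.48 and 12.49, were not alike. Tested there, 24 of the 1106 ESC-high genes were called higher (2.17%) and 80 lower (7.23%).

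The levels of the called genes were followed over the other days. For the 663 genes, the median difference from NanogWT D7 was −1.76 in fusion libraries at D0, −1.71 at D1, −1.27 at D5, −1.32 at D7 and −1.78 at D12. In native libraries it was −1.72 at D0, −1.37 at D1, −0.54 at D3, −0.20 at D5, −0.24 at D8 and −0.59 at D12. The fusion median was at least 1.27 below NanogWT D7 on each day, and the native median was within 0.59 of it from D3 on. MEF and mES lay at −1.90 and −2.51. Since the D7 libraries chose these genes, their own level is the most selected of these values.

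In 453 of the 663 genes (68.3%) both NanogWT D7 libraries were above all 15 NanogBiD libraries of all days, against 7.12% of all tested genes outside the ESC-high set. Over the 10 NanogBiD libraries of D0 to D7 the count was 502 (75.7%, against 8.64%). The 663 genes were called because NanogWT D7 exceeded 2 of these libraries, so a higher share than over all genes is built in, and the counts are a description. In the 663 genes the NanogWT D7 mean was above the MEF mean in 579 and the NanogBiD D3 mean was above it in 450. Within the 112 MEF-high genes that were lower in NanogBiD D3, the NanogWT D7 mean was above MEF in 52 and the NanogBiD D3 mean in 21.

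For the 174 genes, the median difference from NanogBiD D3 was −0.53 in fusion libraries at D1, −0.17 at D5, −0.46 at D7 and −1.42 at D12. In native libraries it was between −1.21 and −1.11 from D1 to D5, −1.29 at D7 and −1.34 at D12. Both NanogBiD D3 libraries were above all 16 NanogWT libraries in 100 of the 174 (57.5%, against 4.26% of all tested genes outside the ESC-high set), where 2 of the 16 had chosen the genes, so that this too is a description. At D12 the median level of these genes was 1.78 in fusion libraries and 1.93 in native libraries.

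**Figure D5:**
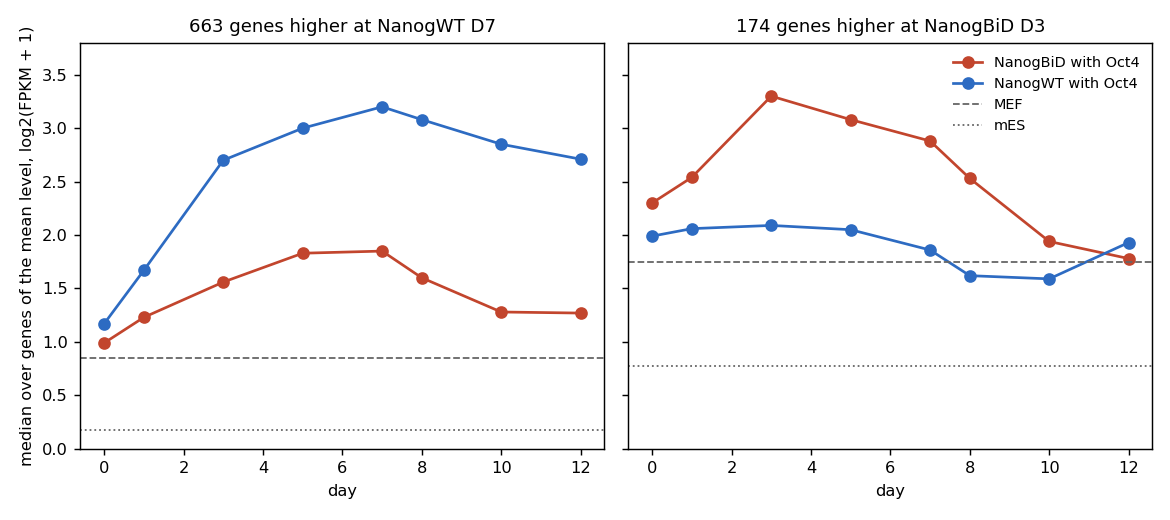
Median over genes of the mean level, in log2(FPKM + 1), against day for the 663 genes higher in NanogWT D7 (left) and the 174 genes higher in NanogBiD D3 (right); red is NanogBiD, blue is NanogWT, the dashed line is MEF and the dotted line mES. On the left the NanogWT line is at 3.20 at D7 and the NanogBiD line is at most 1.85, and on the right the NanogBiD line is at 3.30 at D3 and 1.78 at D12.

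The distance between the groups was set beside that between replicates, as the root mean square log2 difference over genes. Over ESC-high genes it was 0.626 between the groups on average (range over the 4 pairs 0.585 to 0.665), 0.488 between the fusion replicates and 0.331 between the native replicates. Over MEF-high genes it was 0.802 (0.745 to 0.831), against 0.571 and 0.406. Over the remaining 14672 genes it was 0.596 (0.53 to 0.663), against 0.515 and 0.34. The ratios of the distance between groups to the mean distance between replicates were 1.53, 1.64 and 1.39, and each between-group range lay above both replicate distances.

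Among fusion days up to D7, NanogWT D7 was nearest to D3 over ESC-high genes (0.626, with D5 at 0.718), the genes on which the pair was selected. Over MEF-high genes D5 (0.779), D3 (0.802) and D7 (0.91) were the nearest, and over the remaining genes D5 (0.575) and D3 (0.596), with ranges over pairs that overlapped between D3 and D5. None of these came as near as NanogWT D5, at 0.355, 0.375 and 0.343 in the same order. From the other side, NanogWT D7 was not the nearest native day to NanogBiD D3 by mean distance. Over ESC-high genes NanogBiD D3 was at 0.596 from NanogWT D3, 0.604 from D5 and 0.626 from D7, over MEF-high genes at 0.783, 0.768 and 0.802, and over the remaining genes at 0.539, 0.568 and 0.596. The ranges over pairs overlapped between these days for each kind of gene.

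Each combination was also set against its own D0. NanogBiD D3 had 1359 genes higher (8.64% of 15736) and 985 lower (6.26%), and NanogWT D7 had 1853 higher (11.8%) and 920 lower (5.85%). These comparisons share no library. Of the genes that rose, 919 rose in both, 67.6% of the fusion list and 49.6% of the native list, and of those that fell 602 fell in both, 61.1% and 65.4%. A further 930 were called higher than D0 for NanogWT alone and 439 for NanogBiD alone, with no test of that difference, and 5 changed in opposite directions. The share of higher among called genes was 58% and 66.8%, and it was 46.4% and 53.3% after quantile normalization.

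A test of the difference between these changes, NanogBiD D3 from D0 minus NanogWT D7 from D0, called 152 genes higher (0.966% of 15736) and 610 lower (3.88%). It takes out differences already present at D0. U90926 (6.00, adjusted p = 7.87e-09), Dpt (−3.60, adjusted p = 3.68e-06), Zbp1 (−3.59, adjusted p = 3.2e-05) and H2-K1 (−2.76, adjusted p = 4.55e-07) were among them, and of the lists 9 of 13 MHC class I genes, 9 of 24 matrix genes and 6 of 28 interferon-stimulated genes were lower. Serpina3g (1.01, adjusted p = 0.311) and Fos (0.68, adjusted p = 0.397), called above for NanogBiD D3 against NanogWT D7, were not called here. Neither were Sncg (−1.98, adjusted p = 0.0707), Slc7a11 (−1.16, adjusted p = 0.0715), Ptgs2, Osr1 and Sparc. Dlx1as was called, at 1.44 in place of 3.00. The count of genes called in this test and its balance depended on single libraries. There were 666 higher and 953 lower without NanogWT D0 replicate 2 (41.1% higher, against 19.9%), 510 and 930 without NanogBiD D3 replicate 2 (35.4% higher), and 279 in all with the spread taken from the compared groups alone.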

How the data were processed

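RNA-seq FPKM values in the gene table were deposited by the authors, who, per the submitters' processing notes, trimmed reads with Trim Galore 0.6.4, aligned them to mm10 with HISAT2 2.2.1 and quantified with StringTie 2.2.1. Annotation and strand setting are not given in the sources used here. FPKM are not counts, so log2(FPKM + 1) was fitted with limma 3.58.1 in R 4.3.3 (1 mean per combination and day over 31 libraries in 16 groups, intensity trend, Benjamini-Hochberg adjustment over all 16842 genes that reached 1 FPKM in 2 or more libraries). Absolute depth is unknown, so no counting interval is given, and relative depth was read from steps in low values. Named genes were the 10 largest called differences per direction outside the ESC-high set, the 8 largest ESC-high differences, at most 4 called members per list and the 5 largest genes under 1 FPKM in MEF and mES, at a mean of at least 5 FPKM except in the lists; other list members named were chosen after their values were seen. Coordinates and promoters are from RefSeq (GRCm38.p6). The libraries, members and 25 lists were chosen with earlier results of these data known. Scripts were tested on simulated data. The iPSC samples were not used.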

Additional observations from a re-analysis of the deposited data

Results flagged for a closer look

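The change from D0 differed between NanogBiD D3 and NanogWT D7 in 762 genes outside the ESC-high set by the limma test of the difference between the changes. This difference between the groups, which differ in day as well as in combination, is what singled the result out. The change was more positive, or less negative, in NanogBiD D3 for 152 of the 762 genes and in NanogWT D7 for 610. Groups of 2 libraries are too small for a test of outlying libraries.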

How the results depend on the processing

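With the compared groups alone, the main comparison gave 52 genes in place of 837, NanogBiD D3 against D0 1495 in place of 2344 and the difference of changes 279 in place of 762. Without the 2-fold limit the 4 pairwise comparisons gave 2044 (main), 3251 in place of 1322 (NanogBiD D1 against NanogWT D5), 5670 (NanogBiD D3 against D0) and 6157 in place of 2773 (NanogWT D7 against D0). A pseudocount of 0.1 gave 1278, 2077 and 3574 in the first 3 of these. Removing a trend with GC content and length, an alternative added after seeing the data, turned the share of higher calls to 45% (NanogBiD D3 against D0) and 52.3% (NanogWT D7 against D0). As TPM the activation difference was −2.44 in place of 0.16 and the silencing difference 8.65 in place of 6.41.

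Leaving out 1 library at a time gave 782 to 1096 genes for the main comparison, 1255 to 1364 for NanogBiD D1 against NanogWT D5, 2236 to 2898 and 2749 to 3466 for the changes from D0 and 568 to 1619 for their difference; the activation difference ran from −2.26 to 2.59 and the silencing difference from 5.07 to 7.75. A lone library was assumed to vary like the other groups. The ratio of distances was 1.40 (ESC-high) and 1.49 (MEF-high) with a pseudocount of 0.1, 2.47, 2.49 and 1.91 (remaining genes) as 1 minus Pearson r, and 1.72 for MEF-high genes averaging 5 FPKM or more. A replicate block gave 849, 1338, 2357 and 2788 genes in the pairwise comparisons and 846 in the difference of changes. Deviations of same-numbered libraries correlated at 0.366, −0.0873, 0.166 and 0.257 in the 4 pairwise comparisons, and with 2 pairs the samples share only a number.

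Of 48 named genes outside the ESC-high set, with Ctgf and Ccn2 both entered, none changed direction under the alternatives in which it was tested, and 9 stayed called with the compared groups alone. Depth is known only as a ratio, so genes listed at 0 have no detection limit.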
